A study of Drosophila melanogaster with 2 samples.

Results

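The genes described here encode 6 fly proteins known for binding promoters or opening chromatin early in development, and the data show where a different protein, made by the gene CG10462 and tagged with green fluorescent protein, was found on and around them. The members were Dref, M1BP, Trf2, Trl, Clamp and zld, 6 of the 13945 protein-coding genes annotated on the chromosomes that carry any entry. They were chosen for what their proteins do, and no value of the present lists is a criterion of the rule. Earlier results of these data were known when the choice was made, so it was not blind to them. For each gene, every list entry was taken whose summit lay between 2 kb upstream of the gene and the gene's end. The window runs from the most upstream annotated start.

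Dref binds the DNA replication-related element and is known for its part in the promoters of growth and replication genes. M1BP binds a sequence called motif 1, found in promoters of broadly used genes that lack a TATA box. Trf2 is a relative of the TATA-binding protein that serves promoters without a TATA box. Trl encodes the GAGA factor, which binds GA-rich sequence and helps keep promoters free of nucleosomes. Clamp binds GA repeats and is known for guiding the dosage compensation complex to the X chromosome. Zelda, the product of zld, is a pioneer factor that opens chromatin for the first zygotic transcription in the embryo.

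The samples were 2 immunoprecipitations of chromatin from whole embryos 0 to 24 hours old, males and females together, labelled biological replicates 2 and 3 and forming 1 group. All embryos came from flies with a transgene that makes CG10462 with the tag at its C-terminal end, and the precipitating antibody was directed at the tag. The labels give one donor accession for both replicates, do not say what drives the transgene, and point to separate protocol documents. Whole embryos mix many cell types and ages, so a peak in few cells and a weak peak in many cannot be told apart, and the lists hold no expression values by which the tissue could be checked. Neither untagged embryos nor input chromatin were analysed here.

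Peaks are reported in genome build dm6, counted from 1. The authors' optimal list, thresholded by the irreproducible discovery rate (a measure of how alike replicates rank peaks), held 2993 peaks. Each relaxed list of peaks and background (pooled reads, replicate 2, replicate 3) held 30000 entries. The optimal peaks were the 2993 strongest of the pooled list, and 2948 of them overlapped an entry of each replicate. Membership alone therefore does not mean that the replicates ranked a given peak alike. Rank 1 is the highest signal value in a list. Signal values are the authors' own, with no stated scaling, so levels are compared only within a list. No read counts were in the lists, and the depth of each sample is unknown.

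The 6 genes split evenly. Dref, M1BP and Trl had optimal summits, 7 in all, and Trf2, Clamp and zld had 0. So 3 of 6 members had an optimal summit in their window, where 21.4% of all protein-coding genes did. The same 3 genes had one within 500 bp of a start, where 14.7% of protein-coding genes did. With 6 genes chosen by hand and 1 group of samples there is no test of that difference, and the windows of the members, at 3.91 to 25.7 kb, were mostly longer than the median of 4.17 kb. In the relaxed lists an entry was present at 6 of 6 members, but these lists reached 69.7% (pooled), 69.3% (replicate 2) and 71.0% (replicate 3) of protein-coding genes.

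**Figure D1:**
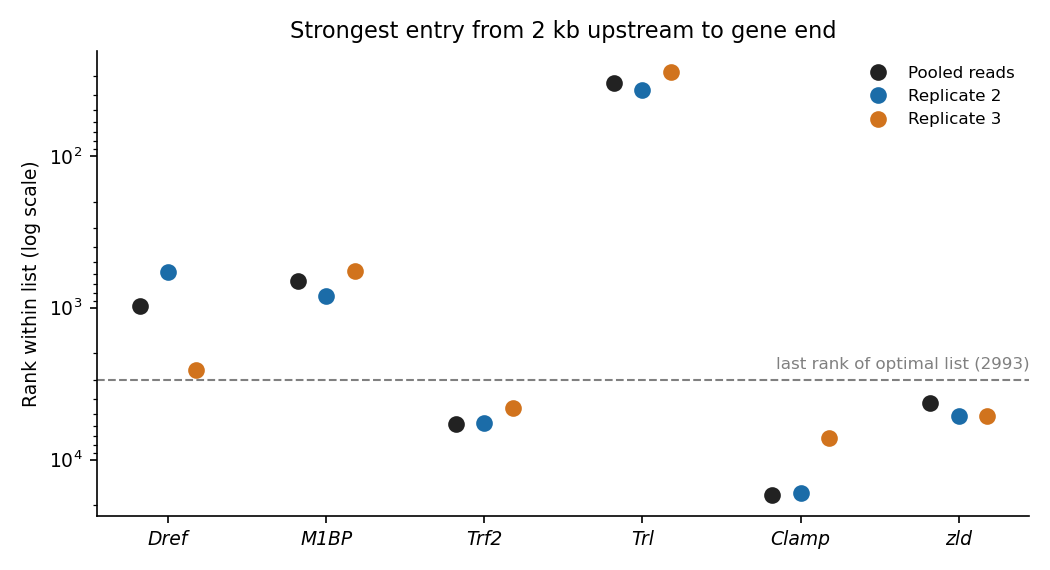
Rank of the strongest entry in the window of each gene (log scale, strongest at the top) in the pooled list and in each replicate; the dashed line is the last rank of the optimal list. Trl stands at ranks 33, 37 and 28, Dref and M1BP lie above the line in all 3 lists, and Trf2, Clamp and zld lie below it in all 3.

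Sequences at the summits are given from the Release 6 reference assembly, on the strand of the member gene, up to 100 bases to each side of the summit and cut where an annotated exon begins. Shown are the optimal peaks of Dref, M1BP and Trl outside exons, and, for comparison, the strongest pooled entries of zld and Trf2, which are below the threshold of the optimal list. Capitals mark matches to the sequences searched for, which are named with their results further on.
Dref, rank 976, the whole stretch between the starts of Dref and RpL13, chr2L:9967230-9967312, minus strand: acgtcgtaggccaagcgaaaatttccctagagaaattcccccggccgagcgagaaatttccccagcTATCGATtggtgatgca
M1BP, rank 669, chr3R:8731879-8732079, minus strand: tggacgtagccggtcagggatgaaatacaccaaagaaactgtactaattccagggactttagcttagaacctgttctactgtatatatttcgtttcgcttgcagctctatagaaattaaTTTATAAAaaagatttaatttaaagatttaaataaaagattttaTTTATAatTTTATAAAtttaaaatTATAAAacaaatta
Trl, rank 33, chr3L:14759403-14759603, minus strand: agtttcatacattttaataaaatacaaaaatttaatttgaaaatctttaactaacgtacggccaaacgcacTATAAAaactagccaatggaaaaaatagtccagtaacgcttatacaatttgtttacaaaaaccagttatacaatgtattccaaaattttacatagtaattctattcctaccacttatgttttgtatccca
Trl, rank 653, chr3L:14756038-14756238, minus strand: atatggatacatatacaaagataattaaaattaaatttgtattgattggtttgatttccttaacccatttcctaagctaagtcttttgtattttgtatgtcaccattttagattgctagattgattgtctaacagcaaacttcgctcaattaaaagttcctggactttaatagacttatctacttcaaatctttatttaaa
Trl, rank 1607, chr3L:14760314-14760514, minus strand: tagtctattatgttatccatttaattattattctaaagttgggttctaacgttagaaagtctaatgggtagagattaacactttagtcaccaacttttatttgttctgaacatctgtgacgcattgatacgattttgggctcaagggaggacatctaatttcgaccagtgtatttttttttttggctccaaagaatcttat
Trl, rank 2674, chr3L:14758299-14758499, minus strand: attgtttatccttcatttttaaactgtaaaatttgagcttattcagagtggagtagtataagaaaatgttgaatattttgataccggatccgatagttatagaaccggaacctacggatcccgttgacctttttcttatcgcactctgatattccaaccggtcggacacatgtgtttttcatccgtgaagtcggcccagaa
zld, pooled rank 4216, chrX:19785008-19785208, minus strand: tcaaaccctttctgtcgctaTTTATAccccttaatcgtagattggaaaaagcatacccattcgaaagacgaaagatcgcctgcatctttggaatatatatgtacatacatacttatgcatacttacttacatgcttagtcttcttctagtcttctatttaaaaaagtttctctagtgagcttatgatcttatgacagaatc
Trf2, pooled rank 5825, chrX:8417765-8417965, plus strand: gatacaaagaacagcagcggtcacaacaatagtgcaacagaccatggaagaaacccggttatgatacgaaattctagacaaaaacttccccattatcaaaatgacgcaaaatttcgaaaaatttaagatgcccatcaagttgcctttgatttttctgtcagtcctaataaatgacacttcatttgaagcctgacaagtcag

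Trl, the GAGA factor gene, carried the strongest and the most numerous peaks of the 6. It lies on 3L from 14747929 to 14761049 on the minus strand (FBgn0013263), and its 10 annotated transcripts begin at 4 starts. Of these, 7 transcripts begin at position 14757962, 1 begins further upstream at 14761049, and the other 2 begin at 14757779 and 14757336. The window held 5 optimal summits, or 0.331 per kb, against 0.0322 per kb over the windows of all protein-coding genes. Only 39 genes, 0.280% of those annotated, had 5 or more. By density, 163 genes with at least 2 summits reached 0.331 per kb.

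The strongest Trl peak had its summit at 14759503, in an intron of the transcript from the most upstream start, 1541 bp upstream of the start that 7 transcripts share. It ranked 33 in the optimal list with a signal value of 488, on a scale that ran from 62.2 to 1092 in that list. In replicate 2 it ranked 37 (signal value 280) and in replicate 3 it ranked 28 (signal value 212), so both replicates placed it near the top. A summit of that rank or better lay in the window of 49 protein-coding genes, or 0.351%.

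The other 4 optimal Trl peaks were weaker and lay on either side of it. The peak at 14756138, in an intron 1824 bp downstream of the shared start, ranked 653, with ranks of 781 in replicate 2 and 654 in replicate 3. The peak at 14757138, 198 bp downstream of the start at 14757336 and in an untranslated part of an exon, ranked 667, with ranks of 583 and 951 in replicates 2 and 3. These peaks had nearly the same signal values in the optimal list, 145 and 144. The peak at 14760414 lay in an intron 635 bp downstream of the most upstream start and ranked 1607, with 2389 in replicate 2 and 1353 in replicate 3. The weakest, at 14758399 and 437 bp upstream of the shared start, ranked 2674 with a signal value of 66.8. It was at 2909 in replicate 2 and at 4556 in replicate 3, so replicate 3 alone would not have placed it among its 2993 strongest.

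The 5 summits covered 4.28 kb, with gaps of 911 to 1261 bp between neighbours. The 8.21 kb from there to the end of the gene, which hold most of the coding exons, had 0 optimal summits and 1 pooled entry, at rank 19005. Replicate 3 had an entry at rank 4211 in a coding exon there, at 14751326, which overlapped no entry of replicate 2. In replicate 2 an entry at 14755309, rank 7913, overlapped none of replicate 3. Another at 14751899, rank 11224, overlapped a replicate 3 entry at rank 27719. CG42507 spans 10034 bp of the same strand from the shared start to the end of Trl, so peaks at that start or downstream of it cannot be assigned to either gene. The optimal peaks at 14759503 and 14758399, in Trl introns, lay 1541 and 437 bp upstream of the CG42507 start as well. Their position does not assign them to Trl alone. Upstream of Trl, the pooled entry at rank 5372 had its summit 133 bp from the start of the neighbouring gene Mgat4a.

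**Figure D2:**
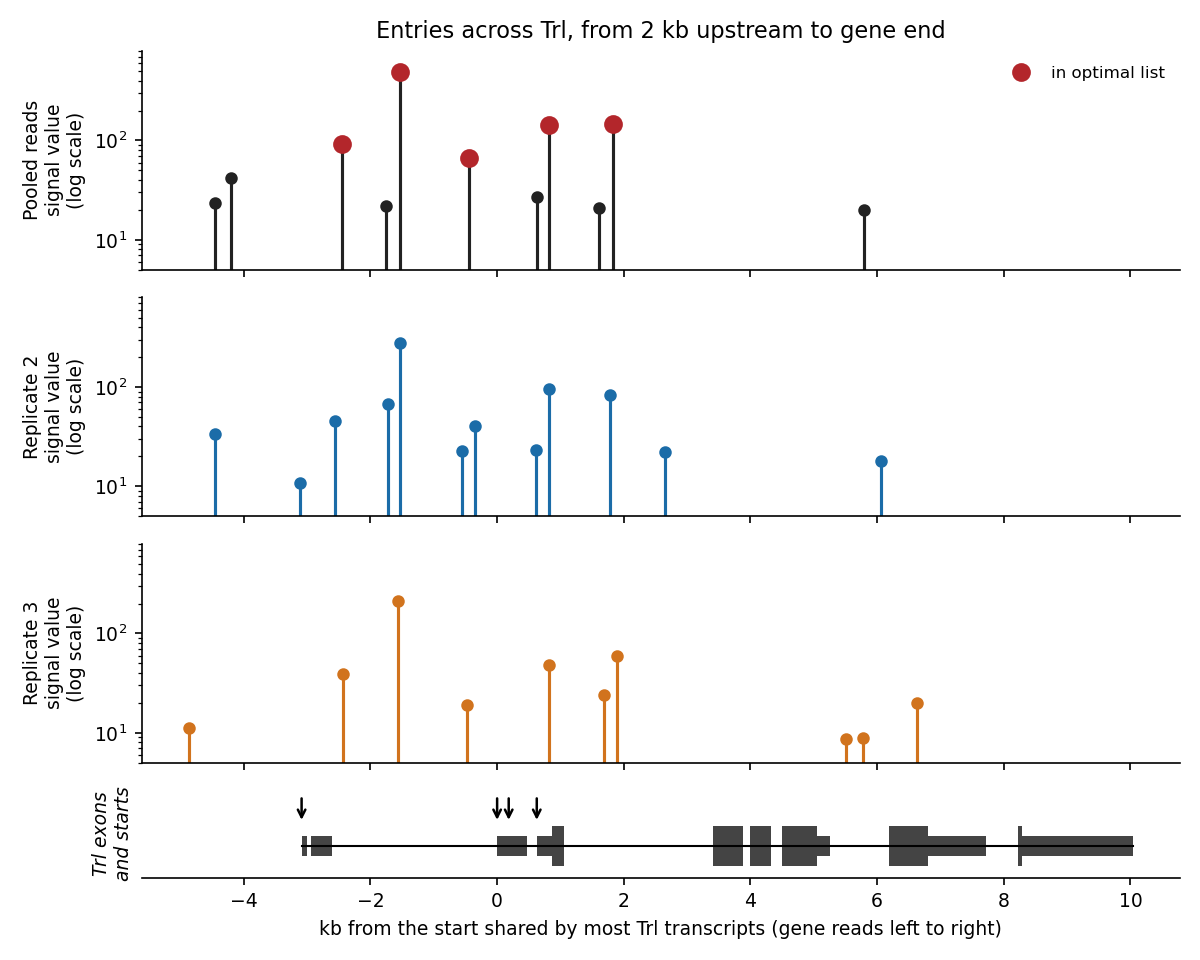
Signal value (log scale, authors' units) of each entry across Trl in the pooled list, replicate 2 and replicate 3, by distance from the shared start; red points are the 5 optimal peaks, thick boxes are coding and thin boxes untranslated exons, and arrows mark the 4 starts. The tallest entry lies 1.54 kb upstream of the shared start in the pooled list, and all 5 optimal peaks lie in the upstream part of the locus.

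Dref, the gene for the DNA replication-related element factor, had 1 optimal peak in a start region that it shares with a ribosomal protein gene. Dref lies on 2L from 9964147 to 9967229 on the minus strand (FBgn0015664), and both of its transcripts begin at 9967229. RpL13 begins 84 bp away at 9967313 and reads in the opposite direction. The summit, at 9967245, lay between these starts, 16 bp upstream of Dref and 68 bp upstream of RpL13. The peak ranked 976 with a signal value of 120, and it cannot be given to one gene or the other.

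The rank difference between replicates was wider at Dref than at the optimal peaks of M1BP and Trl. The peak ranked 585 in replicate 2 and 2577 in replicate 3, a 4.41-fold difference in rank (log2 ratio of replicate 3 over replicate 2, 2.14). Of the optimal peaks, 2948 overlapped an entry of each replicate, and over these the median difference was 1.53-fold and the 90th percentile 3.48-fold, and 6.58% of peaks differed more than the Dref peak. The peak was among the 2993 strongest of each replicate. Its summit was at 9967248 in replicate 2 and at 9967193 in replicate 3, inside the first exon of Dref.

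M1BP, the gene for the motif 1 binding protein, also had 1 optimal peak between divergent starts. M1BP lies on 3R from 8729790 to 8731698 on the minus strand (FBgn0037621), with 1 transcript, and CG8202 begins 393 bp away at 8732091 on the plus strand. The summit, at 8731979, lay 281 bp upstream of M1BP and 112 bp upstream of CG8202. Counted by nearest start it belonged to CG8202, and M1BP then had none. The peak ranked 669 with a signal value of 144, at 833 in replicate 2 (signal value 81.0) and at 577 in replicate 3 (62.6). That 1.44-fold difference in rank was below the median of all optimal peaks.

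Among the 5 Trl peaks the replicates differed in rank by 1.19 to 1.77-fold, close to the median of 1.53-fold. The replicate summits of the 7 member peaks lay 5 to 134 bp apart, against a median of 32 bp and a 90th percentile of 114 bp over all optimal peaks. Of the 7, 6 were wider apart than that median, and the Trl peaks at 14760414 (123 bp) and 14758399 (134 bp) were beyond the 90th percentile. Most entries in the lists had a fixed width (416 bp pooled, 420 bp in replicate 2 and 396 bp in replicate 3) with the summit at the centre, so these positions are the caller's estimates.

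Trf2, the gene for the TATA-binding protein relative, had 0 optimal summits but many weak entries. It lies on X from 8409272 to 8433011 on the plus strand (FBgn0261793), and its 6 transcripts begin at 2 starts 12.1 kb apart. The pooled list had 15 entries in the window, or 0.583 per kb, against 0.264 per kb over all protein-coding windows. M1BP (0.767) and Trl (0.727) had more per kb. The 56.7 kb between the optimal summits on either side of Trf2 held 25 pooled entries, or 0.441 per kb. That stretch contains the Trf2 window, so the 15 entries are among the 25. Replicate 2 had 17 entries in the window (0.660 per kb, against 0.273 over all windows) and replicate 3 had 13 (0.505, against 0.251). Of the pooled entries 13 lay between the starts, as did 12 of replicate 2 and 9 of replicate 3.

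None of these Trf2 entries was strong. The best pooled entry, at 8417865 in an intron 3500 bp before the downstream start, ranked 5825 with a signal value of 39.9, and it was at 5712 in replicate 2 and 12873 in replicate 3. The best entry of replicate 3, at 8417211, ranked 4558, and the entry of replicate 2 that it overlapped ranked 20170. The replicates therefore did not share a leading site. At the starts themselves, replicate 3 had an entry 168 bp from the upstream start at rank 21083, and replicate 2 had one 436 bp from the downstream start at rank 15565. The nearest optimal summit was 10.5 kb upstream of the gene. Over all protein-coding genes the median distance from a start to the nearest optimal summit was 11314 bp. The upstream end of Trf2 overlaps lawc, which reads in the opposite direction, and 1 pooled Trf2 entry (rank 12025) lay 146 bp from a lawc start. In replicate 2 the overlapping entry ranked 6316, 5 bp from that start, and no entry of replicate 3 overlapped either of them.

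The gene of the pioneer factor Zelda, zld, had its best entry upstream and below the threshold. It lies on X from 19766465 to 19783548 on the minus strand (FBgn0259789), with 5 transcripts from 2 starts. The pooled entry at 19785108, 1560 bp upstream of the first start, ranked 4216 with a signal value of 49.3, the highest in the pooled list of any member entry outside the optimal list. Both replicates placed it alike, at 5163 in replicate 2 and 5131 in replicate 3. Nearer the first start, replicate 2 had an entry 109 bp upstream at rank 7580 that had no counterpart in replicate 3 within 500 bp of that start. Replicate 3 had an entry 632 bp upstream at rank 5776. The nearest optimal summit lay past the end of the gene, 19.5 kb from a zld start.

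Clamp, the gene for the GA-repeat factor, had the lowest best rank of the 6 in each relaxed list. It lies on 2L from 22165720 to 22169143 on the minus strand (FBgn0032979), with 2 transcripts from 1 start. The best pooled entry ranked 16986 with a signal value of 21.4, lay in an untranslated stretch near the gene's end, and was at 16643 in replicate 2 and 23132 in replicate 3. Replicate 3 had its best entry, rank 7166, in a coding exon at 22167367, where the pooled entry ranked 26186 and replicate 2 had none. At the start, replicate 3 had an entry 182 bp upstream at rank 17001, and the nearest of replicate 2 was 521 bp away. The nearest optimal summit was 302 kb from the start, a distance exceeded by 1.15% of protein-coding genes. The gene sits 1.34 Mb from the end of the assembled arm, and the 1646 kb from the last optimal summit to that end held 120 pooled entries, or 0.0729 per kb, against 0.224 per kb over the chromosomes with entries.

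**Figure D3:**
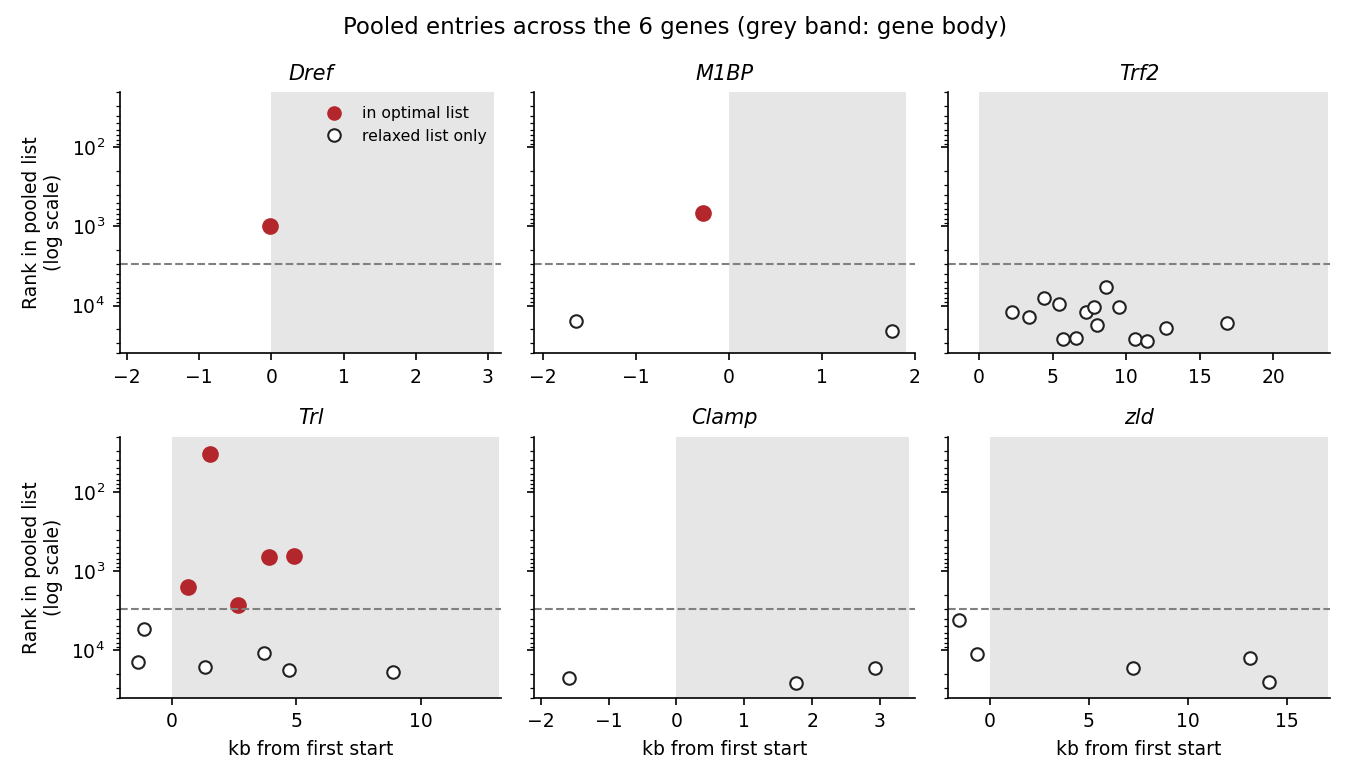
Every pooled entry in the windows of the 6 genes by distance from the first start (kb, gene body in grey) and rank (log scale, strongest at the top); filled points are in the optimal list and the dashed line is its last rank. Dref and M1BP have 1 filled point each just upstream of the start, Trl has 5 inside the gene, and the 15 Trf2 entries all lie below the line.

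In the relaxed lists, an entry lay within 500 bp of a start at 3 of 6 members in the pooled list (50.8% of protein-coding genes), at 5 of 6 in replicate 2 (53.2%) and at 6 of 6 in replicate 3 (44.3%). The 3 in the pooled list were Dref, M1BP and Trl, through their optimal peaks, and that count is near the background. The replicates' additional genes were Trf2 and zld in replicate 2, and these with Clamp in replicate 3, where the zld entry ranked 21827.

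Most optimal peaks at the members held fewer G and C bases at the centre than beside it. The central 100 bp of the 7 peaks held a median of 38% G and C bases, against 45% in flanks of the same length centred 400 bp away. Of these peaks, 5 lay within 4.28 kb at Trl, so the member values mostly describe that gene. Over all 2993 optimal peaks the medians were 32% and 44.5%. The median difference of centre minus flanks was -6.0 percentage points at the member peaks and -12.5 over all peaks, and 6 of the 7 were lower in the centre, as were 83.5% of all. The member median was -16.0 with a central 50 bp, -13.8 with 200 bp and -10.0 with flanks set further out, so its size depended on the windows. The exception was the Trl peak in the exon at 14757138, with 48% in the centre and 37.5% in the flanks. M1BP had the lowest centre, 26% against 45% in its flanks, and the sequence printed for it holds an unbroken run of 37 A and T bases, where the median longest run over all optimal peaks was 12. That low centre depended on the summit used. At the replicate 2 summit of this peak it was 15% against 49.5%, and at the replicate 3 summit 42% against 45.5%. The Dref centre had 45% against 51%.

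**Figure D4:**
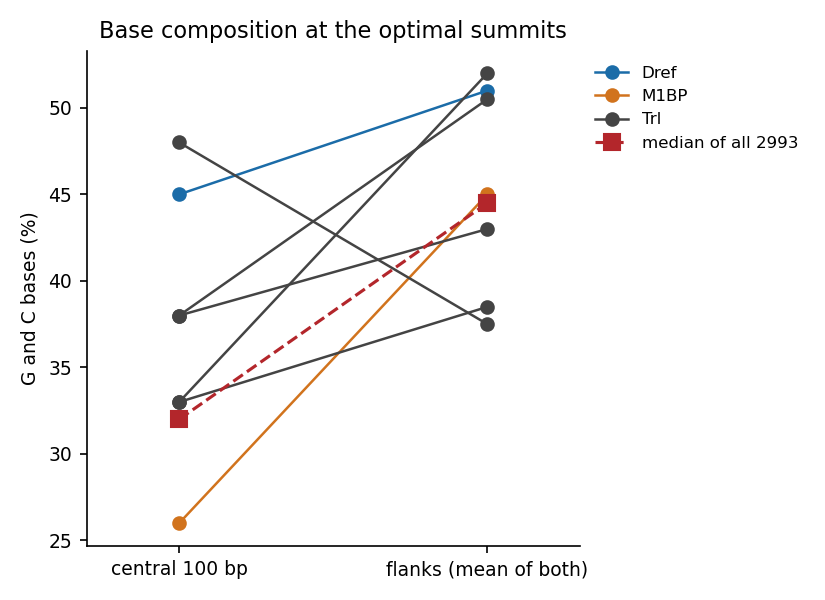
Share of G and C bases (%) in the central 100 bp and in the flanks of each optimal peak at Dref, M1BP and Trl, with the medians of all 2993 optimal peaks as red squares. Of the 7 lines, 6 are lower at the centre, and the exception is the exonic Trl peak.

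The members' own binding sequences were sought in the 300 bp around each of the 7 summits, 5 of them at Trl, on both strands. TATCGATA, the element bound by Dref, matched at 0 of 7 peaks, against 5.18% of all optimal peaks and 9.36% of protein-coding promoters (250 bases before to 50 after the gene start). Its first 7 letters, TATCGAT, were looked for only after the Dref sequence had been seen. They lay across the pooled summit of the peak between Dref and RpL13 and matched at no other member peak. The match, from 9967240 to 9967246, did not include the summit of replicate 2 (9967248) or of replicate 3 (9967193). That shorter sequence was in 10.1% of optimal peaks and 18.2% of promoters. GGTCACACT, the core of motif 1, matched at 0 of 7, the M1BP peak included (2.97% of optimal peaks and 6.05% of promoters).

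GAGAG, the core bound by the GAGA factor, matched at 2 of 7 peaks, against 35.3% of optimal peaks and 29.7% of promoters. These were the Dref peak, with matches 91 and 133 bp from the summit, and the Trl peak of rank 1607. At the other 4 Trl peaks, the strongest included, the letters GAGAG were not in the window. GAGAGAGA, the repeat bound by Clamp, which contains GAGAG, matched at 0 of 7 (3.64% and 3.03%), and so did CAGGTAG, the Zelda sequence (1.67% and 1.64%). TATAAA, the TATA box bound by the Trf2 relative Tbp, matched at 3 of 7 (47.3% and 45.8%), with 7 matches at M1BP, 1 in the Trl peak of rank 2674 and 1 match 29 bp from the summit of the strongest Trl peak.

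Known partners of these factors and other promoter, enhancer and architectural factors were counted in the same way. Of 27 such genes, 11 (40.7%) had an optimal summit within 500 bp of a start and 13 (48.1%) had one in their window, beside the 14.7% and 21.4% of all protein-coding genes given above, and the difference was not tested. The best-ranked was Chro, a chromosomal protein gene, at rank 4. Iswi, the motor subunit of the NURF remodeller that works with the GAGA factor, was at rank 38, with 36 in replicate 2 and 44 in replicate 3. Cp190, an insulator cofactor gene, was at 163, and psq, whose product also binds GA-rich sequence, at 1106.

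The others ranked lower. The anterior determinant bcd ranked 1389, TfIIA-L, which encodes a general transcription factor, 1776, and Adf1 2241. The coactivator gene nej ranked 2639, with 13774 in replicate 2 and 928 in replicate 3. The other 3, with ranks from 2797 to 2968, included gfzf, a partner of M1BP, and lolal, a partner of the GAGA factor. By nearest start, 7 of the 27 kept a summit, since 4 of the peaks, among them those at Cp190 and TfIIA-L, were closer to a neighbouring gene. The direct partners pzg, E(bx), Nurf-38 and Caf1-55, which share complexes with Dref, Trf2 or Iswi, had 0 optimal summits in their windows, as did msl-2, Tbp, Trf and opa. The same held for BEAF-32, CTCF, su(Hw), Taf1, pho and z. In grh and mod(mdg4) the window held optimal summits, but 0 lay within 500 bp of a start.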

How the data were processed

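Per the labels and the deposited sample notes, the authors made a relaxed list from the alignments of each replicate and another from both, and took the optimal list from these. A further input file is named without a description, and the labels name a possible control experiment. Aligner, caller and versions: not given in the sources used here. The authors' signal value ranked entries within a list. The deposited −log10 q-value, larger where an entry stands out more from background, was not used to choose or rank entries. Lists in build dm3 were not analysed.

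Genes and starts came from Ensembl release 115, without transposable elements, and sequence from NCBI's Release 6 assembly (dm6); 0 entries ran past a chromosome end. Chromosomes without entries, such as Y, were left out. A summit is entry start plus offset; entries of different lists were matched by an overlap of at least 1 bp, taking the stronger. All 2993 optimal peaks were the strongest of the pooled list.

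The members and lists were chosen with earlier results of these data known. Named are the members, genes with a start within 500 bp of a member's start or optimal summit, and the 8 best-ranked of the 27 partner genes with a summit near a start. Named outside that rule, after values were seen, are Mgat4a, lawc, gfzf, lolal and partners without a summit near a start. No test was run: there is 1 group and no depth, and whether replicates were separate cultures rests on the labels. Counting functions were tested on simulated data. Python 3.11.15, numpy 2.4.6, pandas 2.3.3 and matplotlib 3.10.9 were used.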

Additional observations from a re-analysis of the deposited data

How the results depend on the processing

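Of 56 recomputed values, 46 stayed within 1.5 times of the reported count or share, or within the spread between peaks for base composition. Only the base composition values could change sign, and 0 did. With the gene body alone, 1 member (Trl) had an optimal summit and 8.12% of protein-coding genes did. With the strongest 1496 optimal peaks, the same 3 members had one, against 12.5% of genes in the window and 8.18% near a start, and 5 partner genes had one near a start. With the strongest 5986 pooled entries, 5 members had one in the window (all but Clamp), against 33.7% of genes, and 19 partner genes and 24.4% of all genes had one near a start. With each summit given to its nearest start, 7 partner genes had one, and the members were Dref and Trl, as at 200 bp. Taking the strongest 2993 entries of a single replicate, Dref, M1BP and Trl had summits in each, 8 in all from replicate 2 (without replicate 3; 2 of them in 1 Trl region) and 6 from replicate 3 (without replicate 2). No paired analysis was possible because the samples form 1 group. The lists carry no depth and no untagged sample, and how low an entry can be read was not tested. They do carry the −log10 q-value. In the pooled list it was 3.82 at every optimal peak of Dref, M1BP and Trl. At the best pooled entries of the other members it was 2.75 for zld, 1.73 for Trf2 and 0.239 for Clamp.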

Other observations

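Several weak entries at the members lay close to a strong one. In the pooled list, the Trl entries at ranks 17940, 10946 and 16167 had their summits 209, 202 and 208 bp from the optimal peaks at ranks 653, 667 and 33. In replicate 2 an entry at rank 1189 had its summit 200 bp from that of the Trl entry at rank 37. Both carry the same interval of 342 bp, 14759349 to 14759690, so they are separate summits of 1 region, and the weaker accounts for the sixth Trl summit among the 2993 strongest of that replicate. In replicate 3 the entry at rank 3082 lay 199 bp from the one at 654, and at Dref an entry at rank 26414 lay 200 bp from the one at 2577. The intervals of each of these pairs overlapped, and whether they are separate sites was not tested.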
